A study of Homo sapiens with 21 samples.

Results

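A set of 21 genes was near-silent in Hs578T cells given the solvent DMSO and had reads in the presence of lapatinib with 0.1 µM THZ531. The genes were chosen by their levels in these groups. The mean level in DMSO had to be under 0.5 CPM (counts per 1e6 counts of the library), and the mean level in the lapatinib combination, with 0.1 CPM added to both means, had to be at least 8 times the DMSO level. Both limits were passed by 32 of the 28395 genes in the table, and 11 of these were left out by name, 8 of them genes of small nuclear, small nucleolar or micro RNAs, 1 an antisense RNA and the other two CIMIP2A and EID3. The remaining 21 genes were 0.0740% of all genes and 0.134% of the 15617 genes under 0.5 CPM in DMSO.

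Hs578T is an established line of triple-negative breast cancer cells with mesenchymal features. RNA was collected 8 h after treatment from 7 groups with 3 libraries each, and no genetic change was made to the cells of any group. The groups were DMSO, 0.1 µM THZ531, 3.16 µM lapatinib, 1 µM nilotinib, lapatinib at 3.16 µM together with THZ531 at 0.1 µM (the lapatinib combination), nilotinib at 1 µM together with THZ531 at 0.1 µM (the nilotinib combination) and 1 µM THZ531. The study compared them to see how the kinase inhibitors change the response of the cells to THZ531. By the study's account, the replicates of a group were separate experiments. Total counts per library were 97612207 to 112229052, and the mesenchymal genes VIM and SPARC had mean levels of 7512 and 3102 CPM in DMSO, whereas the epithelial genes EPCAM and CDH1 had 0.0399 and 0.225 CPM. Among genes with 1 to 20 counts, 61.6% to 66.4% had an even count in each library.

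The targets of THZ531 are CDK12 and CDK13, which phosphorylate the tail of RNA polymerase II while it transcribes, and help the enzyme to reach the end of long genes. Lapatinib blocks the receptors EGFR and HER2, and nilotinib blocks the kinase ABL and related tyrosine kinases. In any cell type many genes make almost no RNA because they serve another tissue, a developmental stage or a stimulus. Reads are assigned to a gene when they lie on its annotated exons, also where these exons lie within or beside a second gene. The study does not state how reads on exons shared by 2 genes were counted. SNX15, which lies within ARL2-SNX15, had 0 CPM in all groups. Whether reads on shared exons were left out was not tested. The libraries were unstranded, so where genes on opposite strands overlap, a read does not show from which it came. Poly(A) selection was used to make them.

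Of the 21 genes, 12 were protein-coding, 4 were long noncoding RNAs, 2 were transcribed pseudogenes, 1 was the gene of the RNase P RNA and 2 had an NCBI gene identifier (101929519 and 101927955) with no entry in the RefSeq annotation used here. Protein-coding genes were 57.1% of the set and 47.0% of all near-silent genes. Long noncoding RNAs were 19.0% of the set and 22.4% of near-silent genes. No names were left out of the near-silent genes, which include 1848 genes of micro RNAs (11.8%), so these are not shares of like sets. The proteins have unlike roles. RGS16 shortens signals of G protein-coupled receptors, PRDM12 is a transcription factor needed for pain-sensing neurons, TRPM5 is a cation channel of taste cells, ASIC4 belongs to the family of acid-sensing ion channels and BEST1 is a chloride channel of the retinal pigment epithelium. RAB26 is a small GTPase of secretory vesicles, SNX22 is a sorting nexin, NAALADL1 is a peptidase, SUMO4 is a ubiquitin-like modifier, HUS1B is a paralog of the checkpoint protein HUS1, DYNLT4 is a dynein light chain and SH3D21 holds SH3 domains.

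The values that chose the genes are given here as a description. In the lapatinib combination the mean level of the genes was 1.24 to 8.67 CPM, and the highest mean level in DMSO was 0.477 CPM. The ratio used for the choice was 8.06 to 29.9, with a median of 11.9. Just inside the limit were P2RX5-TAX1BP3 with a ratio of 8.06, DYNLT4 with 8.99 and SNX22 with 9.78, and just outside were HRC with 7.83, LSMEM2 with 7.64 and C19orf67 with 7.42. Genes that passed the ratio and lay just above the DMSO limit were SNX32 at 0.672 CPM, RASD1 at 0.889 CPM and MGC12916 at 0.975 CPM. In all 21 genes the 3 libraries of the lapatinib combination lay above those of DMSO, as they did in 21.9% of all tested genes. None of the 21 genes was without reads in all DMSO libraries, and 18 had at least 1 count in every DMSO library.

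In the sum over the 21 genes, the groups fell into a low and a high range. In DMSO the summed level was 3.18 ± 0.476 CPM (SD, n = 3), and it was 3.32 ± 0.214 with lapatinib, 3.33 ± 0.236 with nilotinib and 5.97 ± 0.377 with 0.1 µM THZ531. The sum reached 67.8 ± 7.68 CPM in the lapatinib combination, 58.7 ± 5.00 in the nilotinib combination and 43.2 ± 6.73 with 1 µM THZ531. All 21 genes had a mean above 1 CPM in the lapatinib combination, 20 in the nilotinib combination and 15 with 1 µM THZ531, whereas 1 gene (ALMS1-IT1) did so with 0.1 µM THZ531 and 0 did in the other groups. The mean was highest in the lapatinib combination for 17 genes, in the nilotinib combination for 2 (LOC105372824 and HUS1B) and with 1 µM THZ531 for 2 (LOC221946 and BEST1). Since the lapatinib combination was used for the choice, its rank is part of the selection. In 20 of 21 genes all 9 libraries of the 3 strong treatments (both combinations and 1 µM THZ531) lay above all 12 other libraries. ALMS1-IT1 was the exception. This count includes the libraries that chose the genes, and the share among all tested genes was not computed. Fewer cells with RNA from a gene and less RNA per cell cannot be told apart in these bulk samples.

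RPPH1 (NCBI gene 85495, chromosome 14 of GRCh38 from 20343071 to 20343411, minus strand) had the highest level of the set. It encodes the RNA subunit of RNase P, which trims the 5′ ends of tRNA precursors, and its RNA is made by RNA polymerase III and has no poly(A) tail. Its DMSO libraries held 23, 15 and 25 counts, its lapatinib libraries 21, 35 and 15, its nilotinib libraries 36, 27 and 32 and its libraries of 0.1 µM THZ531 43, 64 and 50. There were 1155, 652 and 903 counts in the lapatinib combination, 876, 683 and 635 in the nilotinib combination and 434, 501 and 554 with 1 µM THZ531. The libraries of the strong treatments thus lay above all others with no overlap. Per kilobase of GENCODE exon, RPPH1 was at 26.1 CPM in the lapatinib combination. The next value among the genes with such exons was 5.82 CPM per kb for the pseudogene RNF138P1. The GENCODE exon of RNF138P1 has 546 bases and its RefSeq span 5701, and reads were counted per NCBI gene, so its value may be too high.

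The noncoding RNA ALMS1-IT1 (chromosome 2 from 73457103 to 73459482) lies within an intron of ALMS1, the gene of a centrosomal protein, on the same strand. Its counts were 32, 58 and 26 in DMSO, 47, 43 and 28 with lapatinib, 52, 41 and 38 with nilotinib and 131, 208 and 176 with 0.1 µM THZ531. The strong treatments gave 277, 696 and 529 counts (lapatinib combination), 260, 483 and 537 (nilotinib combination) and 424, 147 and 230 (1 µM THZ531). Here the low dose of THZ531 lay above the other low groups, and 1 µM THZ531 overlapped with the low dose.

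RGS16 (chromosome 1 from 182598623 to 182604389) and PRDM12 (chromosome 9 from 130664594 to 130682983) are the 2 genes of the set that had no other gene of at least 1 CPM in DMSO within 5 kb. RGS16 had 14, 12 and 18 counts in DMSO, 34, 14 and 12 with lapatinib, 41, 14 and 20 with nilotinib, 18, 23 and 14 with 0.1 µM THZ531, 404, 327 and 302 in the lapatinib combination, 258, 205 and 216 in the nilotinib combination and 170, 127 and 149 with 1 µM THZ531. The 3 strong treatments did not overlap with each other, nor with the low groups. PRDM12 had 16, 11 and 8 counts in DMSO, 10, 2 and 0 with lapatinib, 9, 18 and 10 with nilotinib, 17, 10 and 12 with 0.1 µM THZ531, 196, 307 and 230 in the lapatinib combination, 177, 256 and 219 in the nilotinib combination and 116, 90 and 88 with 1 µM THZ531. Its combinations overlapped with each other and lay above 1 µM THZ531.

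The channel genes TRPM5 (chromosome 11 from 2403991 to 2444514) and ASIC4 (chromosome 2 from 219507093 to 219538772) were among the lowest in the low groups. TRPM5 had 0, 2 and 2 counts in DMSO, 0, 4 and 1 with lapatinib, 0, 0 and 0 with nilotinib and 0, 4 and 4 with 0.1 µM THZ531, against 86, 142 and 159 in the lapatinib combination, 73, 113 and 122 in the nilotinib combination and 138, 72 and 89 with 1 µM THZ531. ASIC4 had 0, 0 and 1 counts in DMSO, 3, 3 and 4 with lapatinib, 4, 0 and 0 with nilotinib and 11, 2 and 7 with 0.1 µM THZ531, against 152, 211 and 250, 112, 117 and 143, and 162, 116 and 150 in the strong treatments in the same order. In both genes all libraries of the strong treatments lay above all others, and those of 1 µM THZ531 overlapped with those of both combinations. With each count taken as independent, TRPM5 was at least 106-fold higher in the nilotinib combination than with nilotinib. A floor of 3 counts over the nilotinib group stood in for 0. ASIC4 was 96.4-fold higher in the same comparison (95% counting interval 37.3 to 356 under the same assumption), from 372 against 4 counts. The excess of even counts given above points to counts that often came in pairs. Under such pairing the TRPM5 bound is too high and the ASIC4 interval too narrow.

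RAB26 (chromosome 16 from 2148144 to 2154165) had 2, 15 and 7 counts in DMSO, 9, 7 and 7 with lapatinib, 0, 4 and 7 with nilotinib and 5, 13 and 3 with 0.1 µM THZ531, against 200, 232 and 260 in the lapatinib combination, 113, 205 and 161 in the nilotinib combination and 225, 233 and 171 with 1 µM THZ531. The 3 strong treatments overlapped here. NAALADL1 (chromosome 11 from 65044818 to 65061203) had 3, 8 and 5 counts in DMSO, 2, 0 and 4 with lapatinib, 4, 5 and 4 with nilotinib, 9, 3 and 7 with 0.1 µM THZ531, 103, 208 and 166 in the lapatinib combination, 113, 178 and 176 in the nilotinib combination and 107, 60 and 79 with 1 µM THZ531. In both combinations replicate 1 of this peptidase gene was the lowest, and the libraries of the lapatinib combination overlapped with those of 1 µM THZ531.

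SH3D21 (chromosome 1 from 36306368 to 36330236) and SNX22 shared a low replicate 1 in the combinations. SH3D21 had 265, 509 and 545 counts in the lapatinib combination, 218, 443 and 416 in the nilotinib combination and 334, 211 and 259 with 1 µM THZ531, and SNX22 had 292, 509 and 449, 220, 337 and 266, and 356, 185 and 230 in the same order. In the 4 low groups SH3D21 had 8 to 46 counts per library and SNX22 had 10 to 42. DYNLT4 (chromosome 1 from 44805893 to 44807351) was more even, with 123, 135 and 171, 141, 121 and 110, and 114, 97 and 107 counts in the strong treatments and 3 to 19 in the low groups. The 3 strong treatments of DYNLT4 lay close together, at 1.38, 1.20 and 1.03 CPM.

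Both pseudogenes were lower with 1 µM THZ531 than in the combinations. RNF138P1 had 10, 6 and 5 counts in DMSO, 3, 6 and 4 with lapatinib, 5, 5 and 15 with nilotinib, 6, 10 and 2 with 0.1 µM THZ531, 356, 289 and 346 in the lapatinib combination, 243, 248 and 228 in the nilotinib combination and 133, 85 and 114 with 1 µM THZ531, so that the strong treatments did not overlap. AURKAP1 had 37, 14 and 26 counts in DMSO, 35, 30 and 30 with lapatinib, 19, 32 and 32 with nilotinib, 60, 57 and 40 with 0.1 µM THZ531, 336, 416 and 404 in the lapatinib combination, 350, 340 and 334 in the nilotinib combination and 184, 123 and 146 with 1 µM THZ531. Its combinations overlapped, and both lay above 1 µM THZ531.

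Promoter sequences of 8 of the 21 genes were in the RefSeq promoter table (GRCh38.p14), and the 250 bases before the annotated start of 4 of them are shown to place genes of unlike position side by side. RGS16 (chr1:182604390-182604639, minus strand) and PRDM12 (chr9:130664344-130664593, plus strand) lie apart from other expressed genes. SH3D21 (chr1:36306118-36306367, plus strand) starts 1010 bases after the end of THRAP3, and SUMO4 (chr6:149400012-149400261, plus strand) lies within TAB2. Capitals mark the CCAAT box (CCAAT) and the GC box (GGGCGG) on either strand, so that ATTGG and CCGCCC are also in capitals.
RGS16: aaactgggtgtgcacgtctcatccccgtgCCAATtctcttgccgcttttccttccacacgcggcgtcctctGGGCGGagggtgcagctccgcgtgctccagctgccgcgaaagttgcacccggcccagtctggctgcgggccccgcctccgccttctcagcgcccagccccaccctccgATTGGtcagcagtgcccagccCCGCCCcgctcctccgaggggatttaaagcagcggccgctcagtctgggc
PRDM12: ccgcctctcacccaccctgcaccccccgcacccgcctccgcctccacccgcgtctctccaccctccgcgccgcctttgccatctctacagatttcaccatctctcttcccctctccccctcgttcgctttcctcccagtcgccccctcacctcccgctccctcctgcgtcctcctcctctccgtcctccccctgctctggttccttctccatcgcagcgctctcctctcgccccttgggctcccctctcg
SH3D21: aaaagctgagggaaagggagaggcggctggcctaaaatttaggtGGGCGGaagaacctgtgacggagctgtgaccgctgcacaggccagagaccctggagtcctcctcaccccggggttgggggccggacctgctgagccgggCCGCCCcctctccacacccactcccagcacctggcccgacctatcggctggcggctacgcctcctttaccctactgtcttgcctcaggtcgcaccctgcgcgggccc
SUMO4: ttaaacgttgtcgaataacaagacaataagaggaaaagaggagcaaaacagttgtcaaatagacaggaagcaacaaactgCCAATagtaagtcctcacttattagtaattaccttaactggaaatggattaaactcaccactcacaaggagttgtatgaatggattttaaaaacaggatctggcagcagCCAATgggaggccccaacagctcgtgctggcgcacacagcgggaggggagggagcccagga

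The G+C content was 68.4% for RGS16 and PRDM12, 66.8% for SH3D21 and 44.8% for SUMO4, and the median was 63.2% over the 8 promoters, 58% over all 27305 in the table and 64.4% over the 12271 of tested genes. CCAAT boxes were in 3 of the 8 promoters (ALMS1-IT1, RGS16 and SUMO4), in 33.0% of all and in 34.8% of those of tested genes. GC boxes were in 3 (SH3D21, SNX22 and RGS16), in 42.3% of all and in 63.9% of those of tested genes. The letters TATAAA (11.1% of all promoters), the E-box CACGTG (6.49%) and the cAMP response element TGACGTCA (1.77%) were in 0 of the 8. The AP-1 site TGACTCA (4.16% of all) was in DYNLT4 and the heat shock motif GAANNTTC (5.85%) in HUS1B. All motifs were searched on both strands, and the windows of HUS1B, DYNLT4, SNX22 and ALMS1-IT1 overlap annotated exons.

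The choice used neither the nilotinib groups nor those of THZ531 alone, so the genes were tested there with edgeR's quasi-likelihood test. The p-values were adjusted by Benjamini-Hochberg over all 16036 tested genes. By the study's account, 1 µM THZ531 and both combinations changed expression almost alike, so calls in these groups were likely beforehand. Calls needed a log2 fold change beyond 1 as well as an adjusted p-value under 0.05. All 21 genes passed the filter on low counts, for which their counts in the lapatinib combination alone were enough. With 0.1 µM THZ531 added to nilotinib, 21 of 21 genes were called higher, while 6.81% of all tested genes were called higher and 20% lower. A near-silent gene passes the filter through groups in which it is high, and 23% of the near-silent genes tested were called higher. The log2 fold change was 3.06 (P2RX5-TAX1BP3) to 6.73 (ASIC4) in the genes other than TRPM5, and the median of the 21 genes was 4.85 against 0.01 over all tested genes. TRPM5 had 0 counts in all nilotinib libraries, so its fitted value of 9.88 depends on the prior count. Only the bound given above can be read from these counts, and it takes them as independent. For RPPH1 it was 4.85 (SE 0.25, adjusted p = 1.50e-12), and for RGS16 it was 3.50 (SE 0.32, adjusted p = 5.83e-09), both from edgeR. The largest adjusted p-value of the set in edgeR's test was 2.20e-07, that of ALMS1-IT1. All 3 libraries of the nilotinib combination lay above all 3 of nilotinib in 21 of 21 genes, as they did in 21.1% of all tested genes.

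The same genes were higher with 1 µM than with 0.1 µM THZ531, in libraries that the nilotinib comparison does not share. Here 20 of 21 genes were called higher, against 6.83% of all tested genes and 26.6% of the near-silent genes tested, and the median log2 fold change of the 21 genes was 3.16 against 0.04 over all tested genes. The largest rise was that of the noncoding RNA LOC221946, by a log2 fold change of 6.56 (SE 0.26, adjusted p = 8.97e-14 in edgeR's test), from 5, 10 and 10 counts to 819, 694 and 489. TRPM5 rose by 5.41 (SE 0.57) and BEST1 by 5.21 (SE 0.44). ALMS1-IT1, which had a log2 fold change of 0.90 (SE 0.37, edgeR's adjusted p = 0.0368), was under the limit of 1. The libraries of 1 µM THZ531 lay above all those of 0.1 µM in 20 of 21 genes, as they did in 25.9% of all tested genes.

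Nilotinib added to 0.1 µM THZ531 was also compared with that dose alone, which shares the nilotinib combination with the first of these comparisons and the low dose with the second. In this comparison 21 of 21 genes were called higher, against 6.53% of all tested genes and 24% of the near-silent genes tested, with log2 fold changes of 1.62 (ALMS1-IT1) to 6.15 (LOC221946) and a median of 4.10. With the libraries scaled to the mitochondrially encoded mRNAs, 20 were called, and ALMS1-IT1, at 0.97, was under the limit of 1. Of the 16036 tested genes, 501 were called higher in this setting.

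Few differences were seen between the single inhibitors. Between lapatinib and nilotinib 0 of 21 genes were called in either direction with edgeR's quasi-likelihood test, 1 was at an unadjusted p-value under 0.05 and DESeq2 also called 0, against 0.0187% of all tested genes called higher and 0.0561% lower, and 0.0921% of the near-silent genes tested called higher. The gene at an unadjusted p-value under 0.05 was PRDM12, with a log2 fold change of −1.52 (SE 0.59, edgeR's adjusted p = 0.30). Without lapatinib replicate 1, the library with 10 counts, PRDM12 was called lower with lapatinib. In DMSO, lapatinib and nilotinib, the medians of the genes' mean levels were 0.107, 0.0962 and 0.115 CPM.

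The low dose of THZ531 was set against the mean of both single inhibitors, since the DMSO libraries had served for the choice. By edgeR's quasi-likelihood test 4 of 21 genes were called higher with 0.1 µM THZ531 (0.349% of all tested genes and 1.23% of the near-silent genes tested were) and 1 lower (1.3% were). The higher ones were all noncoding or had no RefSeq entry. ALMS1-IT1 rose by a log2 fold change of 2.04 (SE 0.34, adjusted p = 0.000487 in edgeR's test) and LOC105372824, a noncoding RNA within the pyridoxal kinase gene PDXK, by 1.63 (SE 0.21, adjusted p = 4.32e-05). The genes with identifiers 101929519 and 101927955 rose by 1.82 (SE 0.42) and 1.46 (SE 0.40). Gene 101929519 had 24, 48 and 44 counts with the low dose, 4, 14 and 14 with lapatinib and 8, 14 and 11 with nilotinib, but also 11, 42 and 7 in DMSO, where replicate 2 reached the level of the low dose. Gene 101927955 had 16, 12 and 16 counts against 4, 9 and 6 with lapatinib and 8, 2 and 3 with nilotinib, and it was not called without replicate 1 or without replicate 3 of the low dose.

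BEST1 was the gene called lower with 0.1 µM THZ531, by a log2 fold change of −1.60 (SE 0.45, edgeR's adjusted p = 0.0215). It had 8, 10 and 14 counts with 0.1 µM THZ531, 35, 45 and 24 with lapatinib, 60, 13 and 18 with nilotinib and 23, 14 and 10 in DMSO. Nilotinib replicate 1 stood apart with 60 counts, and the call was kept without it. Without replicate 1 or without replicate 2 of the low dose BEST1 was not called. With the libraries scaled to the mitochondrially encoded mRNAs, 8 of 21 genes were called higher with 0.1 µM THZ531. They were the 4 named above and ASIC4, SH3D21, RPPH1 and DYNLT4. Of the 16036 tested genes, 106 were called higher in this setting and 56 in the main fit. All 3 libraries of 0.1 µM THZ531 lay above all DMSO libraries in 7 genes (11.3% of all tested genes did), those of lapatinib in 3 (7.78%) and those of nilotinib in 2 (8.47%).

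The strong treatments differed in size. The mean level in the nilotinib combination was 61.0% to 149% of that in the lapatinib combination (median 85.7%), and the mean level with 1 µM THZ531 was 33.0% to 204% of it (median 53.6%). The lapatinib combination chose the genes, so only the nilotinib combination was tested against 1 µM THZ531. By edgeR's quasi-likelihood test 8 of 21 genes were called higher in the nilotinib combination and 0 lower, against 0.898% and 1.66% of all tested genes and 1.41% of the near-silent genes tested called higher. The median log2 fold change of the 21 genes was 0.65, and that of all tested genes was −0.03. HUS1B had the largest log2 fold change, 1.38 (SE 0.29, adjusted p = 0.0015 in edgeR's test), with 220, 264 and 202 counts in the nilotinib combination and 95, 73 and 103 with 1 µM THZ531. For the gene with identifier 101927955 it was 1.37 (SE 0.31), for gene 101929519 1.36 (SE 0.33), for SUMO4 1.25 (SE 0.38), for the pseudogene AURKAP1 1.22 (SE 0.20), for PRDM12 1.19 (SE 0.30), for RNF138P1 1.16 (SE 0.24) and for LOC105372824 1.10 (SE 0.18). The genes of the channels and of the vesicle GTPase were not called. TRPM5 had 0.09 (SE 0.37), ASIC4 −0.16 (SE 0.30), RAB26 −0.35 (SE 0.33) and BEST1 −0.26 (SE 0.32). The lowest value was that of LOC221946, at −0.41 (SE 0.17, edgeR's adjusted p = 0.0911).

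The number of calls in this comparison rested on single libraries. Without replicate 2 of 1 µM THZ531, the library with the lowest summed level of the 21 genes among the strong treatments (37.7 CPM), 5 genes were called (AURKAP1, PRDM12, HUS1B and the genes 101929519 and 101927955). Without replicate 1 of 1 µM THZ531 there were 10, with ALMS1-IT1 and NAALADL1 in addition to the 8. The calls over all genes moved too, with 62 of 16278 higher without replicate 2 and 269 of 16274 without replicate 1.

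The genes were then placed on the genome. RefSeq positions were known for 19 of the 21. Of these, 6 lay within a gene that had at least 1 CPM in DMSO, 6 overlapped such a gene at an edge, 1 started within 5 kb after the end of such a gene on the same strand, 4 had such a gene within 5 kb in another or unknown arrangement and 2 lay apart. The unknown arrangement was that of LOC221946, whose strand was not found. Genes within another were 31.6% of the set, 13.0% of near-silent genes, 12.2% of near-silent genes that passed the filter and 4.21% of all tested genes. Genes that overlapped at an edge were 31.6%, 6.80%, 16.9% and 17.3% in the same order, and genes that lay apart were 10.5%, 68.2%, 46.0% and 48.7%. The set is small, and no test was made of these shares. Unlike the set, the near-silent and tested genes it is compared with had no names left out. With 1 kb or 20 kb in place of 5 kb, 13 of the 19 genes still lay within, overlapped or just followed another gene. The 6 within and the 6 overlapping genes do not depend on this distance, so the count could hardly move. Among near-silent genes that passed the filter this share was 31.0% at 1 kb and 44.1% at 20 kb. LOC221946 is not among the 13, since without a strand it could not be placed after a gene. The genes of the set spanned 341 to 40524 bases, with a median of 5767, against 7761 for near-silent genes and 27777 for tested genes.

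**Figure D1:**
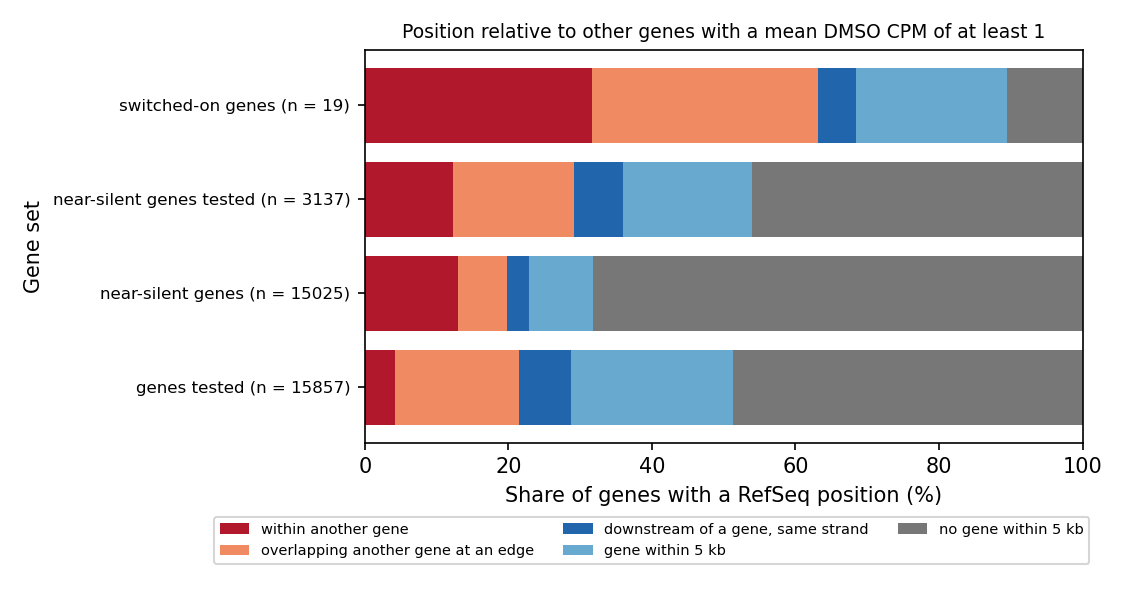
Share of genes in each position relative to other genes with a mean of at least 1 CPM in DMSO, for the switched-on genes and for 3 reference sets, among genes with a RefSeq position. The grey part, genes with no such gene within 5 kb, was 10.5% in the switched-on set and 46.0% to 68.2% in the reference sets. No genes were left out of the reference sets by name.

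The 6 genes within another were LOC105372824 in PDXK, ALMS1-IT1 in ALMS1, AURKAP1 in RAB3GAP2, RNF138P1 in PLPP1, HUS1B in EXOC2 and SUMO4 in TAB2. The 5 with a known strand had the strand of the gene around them. AURKAP1, a processed copy of the mitotic kinase gene AURKA (chromosome 1 from 220266179 to 220267715), had 86.3% of its exon bases within exons of RAB3GAP2. Reads on these bases may have been left out or may come from RAB3GAP2, so its reads cannot be assigned to it with certainty. Reads of AURKA itself may also be placed there. RNF138P1 (chromosome 5 from 55528842 to 55534542) is a copy of RNF138 and shares the same limit. Of the 6 containing genes, 0 were called in either direction with THZ531 added to nilotinib in edgeR's test. Between the high and the low dose of THZ531, 0 were called as well. Their log2 fold changes were −0.88 to 0.82 and −0.88 to 0.18 in these comparisons. Of all tested genes, 6.81% were called higher and 20% lower in the former, and 6.83% and 17.6% in the latter. Without the limit on the fold change all 6 passed with THZ531 added to nilotinib, 3 of them higher (ALMS1, PLPP1 and TAB2) and 3 lower (PDXK, RAB3GAP2 and EXOC2), and between the doses 1 was higher and 3 were lower. TAB2, a signalling adaptor of the TAK1 kinase, had the highest value, 0.82 (SE 0.10, edgeR's adjusted p = 2.54e-07), and RAB3GAP2 the lowest, −0.88 (SE 0.07, edgeR's adjusted p = 8.74e-10).

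HUS1B (chromosome 6 from 655939 to 657100, minus strand, a gene without introns) lies in an intron of EXOC2, which encodes a subunit of the exocyst. EXOC2 was at 45.3 ± 1.19 CPM (SD, n = 3) in DMSO, 47.5 ± 0.253 with nilotinib, 27.6 ± 1.75 in the lapatinib combination, 30.1 ± 2.59 in the nilotinib combination and 33.7 ± 1.57 with 1 µM THZ531. HUS1B was at 0.0976 ± 0.0483 CPM in DMSO, at 0.115 ± 0.0469 with nilotinib and at 2.16 ± 0.297, 2.21 ± 0.30 and 0.876 ± 0.158 CPM in the same strong treatments. SUMO4 (chromosome 6 from 149400262 to 149401278) was at 1.31 ± 0.249 CPM in the lapatinib combination, 1.16 ± 0.129 in the nilotinib combination and 0.501 ± 0.168 with 1 µM THZ531, and at 0.0251 ± 0.0288 CPM in DMSO. TAB2 around it was at 84.0 ± 3.19 CPM in DMSO and at 121 ± 11.6, 118 ± 14.6 and 79.8 ± 12.4 CPM in the same strong treatments. SUMO4 was thus 1.08%, 0.980% and 0.628% of the level of TAB2. LOC105372824 (chromosome 21 from 43737000 to 43738097) reached 5.34 ± 0.692, 5.84 ± 0.129 and 2.81 ± 0.462 CPM in these treatments, which was 7.49%, 7.79% and 3.79% of the level of PDXK.

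The comparison of the nilotinib combination with 1 µM THZ531 was also read by position. Of the 6 genes within another, 5 were called higher in the nilotinib combination, with a median log2 fold change of 1.19 and ALMS1-IT1 at 0.72 (SE 0.36, edgeR's adjusted p = 0.167). Of the 13 placed genes not within another, 1 (PRDM12) was called, with a median of 0.14. The 2 genes without a RefSeq position were both called. This split was noticed after the values were seen and was not tested. Without replicate 2 of 1 µM THZ531, 2 of the 6 (AURKAP1 and HUS1B) and 1 of the 13 (PRDM12) were called.

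Genes that overlap another at an edge were P2RX5-TAX1BP3, SH3D21, SNX22, BEST1, NAALADL1 and DYNLT4. With 44, 52 and 59 counts in DMSO, P2RX5-TAX1BP3 was also the gene with the highest DMSO level of the set. P2RX5-TAX1BP3 (chromosome 17 from 3662893 to 3696404, minus strand) is a readthrough transcript that joins the ATP-gated channel gene P2RX5 to TAX1BP3 downstream. It shared 56.5% of its exon bases with these and with CTNS and EMC6 on the opposite strand. It was called higher by a log2 fold change of 3.06 (SE 0.18) with THZ531 added to nilotinib and by 2.96 (SE 0.18) between the doses of THZ531. P2RX5 was listed at 0.373 CPM in DMSO and 0.329 in the nilotinib combination, and TAX1BP3 at 0.705 and 1.01 CPM. BEST1 (chromosome 11 from 61949821 to 61965515, plus strand) meets FTH1, the ferritin heavy chain gene, tail to tail, with 14.6% of its exon bases shared. FTH1 was at 3370 CPM in DMSO, 5191 in the lapatinib combination and 4494 in the nilotinib combination, and BEST1 was at 0.0556% and 0.0583% of FTH1 in these combinations. SNX22 (chromosome 15 from 64151731 to 64157481) overlaps the cyclophilin gene PPIB on the opposite strand, with 20.2% of its exon bases shared. PPIB was at 140 ± 7.60 CPM in DMSO and 179 ± 12.6 in the nilotinib combination, and SNX22 was at 1.48% of it there. For SH3D21, NAALADL1 and DYNLT4, the shared exon bases were 15.3%, 0.272% and 7.23%. SH3D21 overlaps EVA1B on the opposite strand, which was at 13.1 CPM in DMSO and 14.8 in the nilotinib combination. Reads on shared exon bases may have been left out of these counts, also for P2RX5 and TAX1BP3. The part of the overlapping genes in the counts was not tested.

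LOC221946 (chromosome 7 from 5513854 to 5525545) fills most of the space between FBXL18, the gene of an F-box protein, and ACTB, the gene of beta-actin. The gap was 44 bases to FBXL18 and 1602 to the 3′ end of ACTB, and both of these genes are on the minus strand. The strand of LOC221946 was not found, so it is not known whether it lies downstream of ACTB on the same strand. LOC221946 was the gene of the set with the highest level in 1 µM THZ531, at 6.45 ± 1.58 CPM, against 4.71 ± 0.152 in the nilotinib combination and 3.16 ± 0.673 in the lapatinib combination. In the 4 low groups it had 5 to 16 counts per library. FBXL18 was at 82.2 ± 10.1 CPM in DMSO and fell to 8.22 ± 2.09 in the nilotinib combination, a log2 fold change of −2.85 against nilotinib (SE 0.20, edgeR's adjusted p = 1.10e-10). Between the doses of THZ531 the log2 fold change of FBXL18 was −2.17 (SE 0.19, edgeR's adjusted p = 5.41e-09). ACTB was at 15142 CPM in DMSO and 20772 in the nilotinib combination.

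Other close neighbours showed no common direction. PARP2, a DNA repair gene that starts 223 bases from RPPH1 on the other strand, fell with THZ531 added to nilotinib, by a log2 fold change of −1.15 (SE 0.12, edgeR's adjusted p = 3.49e-08), and by −1.48 (SE 0.12) between the doses. GMPPA, which ends 103 bases before ASIC4 on the same strand, had 0.16 (SE 0.09, edgeR's adjusted p = 0.121) with THZ531 added to nilotinib. TSSC4, 114 bases from the end of TRPM5 on the other strand, had −0.74 (SE 0.10), and THRAP3, which ends 1010 bases before SH3D21, had 0.70 (SE 0.17). BTBD19, 1171 bases from DYNLT4, rose by 1.08 (SE 0.23, edgeR's adjusted p = 0.000256). Of 12 neighbours within 5 kb, 1 was called higher and 2 lower with THZ531 added to nilotinib. Of 8 genes that overlap at an edge 0 were called higher and 1 (CTNS) lower. In the same comparison 6.81% of all tested genes were called higher and 20% lower, so these few calls show nothing particular to the neighbours.

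Genes typical of other tissues were looked at in 9 lists of germline and cancer-testis, neuronal, blood, epithelial, muscle, liver, interferon, p53 target and stress genes. Of the 175 genes measured, 112 were under 0.5 CPM in DMSO. None was in the set of 21, which holds 0.134% of such genes, so little can be read from this. With THZ531 added to nilotinib, 7 of the 90 tested were called higher and 18 lower by edgeR's quasi-likelihood test (7.78% and 20%, against 6.81% and 20% of all tested genes). Between the doses of THZ531 7 were higher and 12 lower (7.78% and 13.3%, against 6.83% and 17.6%). Those higher with THZ531 added to nilotinib were NEUROG2, PTPRC, CLDN7, GADD45A, HSPA1A, HSPA6 and ATF3, of which the last 3 are on the stress list. On that list of 12 genes 3 were also lower in this comparison, and 1 was higher and 3 were lower between the doses. Of the 10 germline genes tested 0 were called higher in either comparison, and of the 8 neuronal genes tested 1 was called higher in each.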

How the data were processed

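Unstranded poly(A)-selected libraries were sequenced as paired ends. The authors aligned filtered reads to GRCh38 with HISAT2 (2.1.0 per the submitters' processing notes), counted them with featureCounts and deposited raw counts per NCBI gene identifier. RefSeq (GRCh38.p14) gave names, biotypes and positions for 27745 of 28395 genes, and GENCODE v44 gave exons and strands. Reads were counted per NCBI gene, so exon lengths and shared exon bases may differ from those used for counting.

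CPM is the count over the library total. In R 4.3.3, edgeR 4.0.16 (TMM, filterByExpr, glmQLFit, glmQLFTest) was fitted with 1 mean for each of 7 groups, with Benjamini-Hochberg adjustment. DESeq2 1.42.0 was an alternative. No contrast with DMSO or the lapatinib combination was tested, since these chose the genes. The tests were tried on simulated data. Intervals and floors cover counting error only and take each count as independent.

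The members, lists and tests were chosen with earlier results of these data known. Genes were named by rank in the lapatinib combination, by class, by closeness to the limit and by call, which covered all 21. The split by position, and the neighbours singled out, were chosen after their values were seen.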

Additional observations from a re-analysis of the deposited data

How the results depend on the processing

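The number of genes chosen depended on the limits. It was 82 with a ratio limit of 4, 6 with a limit of 16 and 1 with 0.5 CPM added to both means in place of 0.1 CPM. It was 20 to 27 without any 1 of the 6 libraries used for the choice, 19 with every DMSO library under 0.5 CPM and 29 with CPM after TMM.

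With at least 10 counts required in every library, 7 of the 21 genes could be tested. The number called higher was then 7 for the nilotinib combination against nilotinib and 6 for the doses of THZ531. It was 7 for the nilotinib combination against 0.1 µM THZ531 and 2 for the nilotinib combination against 1 µM THZ531. For 0.1 µM THZ531 against the single inhibitors it was 2, and 0 were lower. Of the 13447 genes tested in this setting, 521, 463, 458, 97 and 21 were called higher in the same order. Scaling to the mitochondrially encoded mRNAs gave 8 higher with 0.1 µM THZ531, and the median of all genes was then −0.44 for the nilotinib combination against nilotinib and −0.50 for the doses, in place of 0.01 and 0.04. With library size alone these medians were −0.27 and −0.18. The mitochondrial scaling gave 20 genes higher, not 21, for the nilotinib combination against 0.1 µM THZ531, where ALMS1-IT1 was at 0.97.

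With single libraries left out, the counts were 21 in every fit for the nilotinib combination against nilotinib, 20 to 21 for the doses, 5 to 10 for the nilotinib combination against 1 µM THZ531, 3 to 6 higher and 0 to 1 lower for 0.1 µM THZ531 against the single inhibitors, and 0 to 1 lower for lapatinib against nilotinib. Same-numbered libraries correlated over 0.1 in their deviations from the group means in 36 of 63 pairs (mean 0.143, range −0.80 to 0.87). For libraries with different numbers the mean was −0.067. Some groups may thus share replicate structure, which the main fits, without a replicate block, did not model. With the replicate block, the comparisons gave 21, 20, 21 and 8 genes higher in the order of the paragraph above, and 4 higher and 1 lower for 0.1 µM THZ531, so no call changed. Of 1232 values of single genes under the alternatives, in the comparisons of the nilotinib combination with nilotinib and of the doses, 1230 kept their side of the limits and 2 passed them newly, both for ALMS1-IT1 between the doses, which was 1.05 without replicate 2 of 0.1 µM THZ531 and 1.19 without replicate 2 of 1 µM THZ531.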
